A study of Mus musculus with 5 samples.

Results

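The 43 genes described here mark the phases of the cell cycle: 19 act in DNA replication, 20 in mitosis and 4 at entry into the cycle from G1. They were taken by symbol, and all 43 were found among the 56691 Ensembl IDs of the deposited count table. The table holds RNA-seq counts for natural killer (NK) cells from mouse spleen, lymphocytes that kill tumour and infected cells. Fli1 KO cells (3 libraries) had been through CRISPR knockout of Fli1, which encodes an ETS-family transcription factor, and NTC cells (2 libraries) are the control that the labels give only by that abbreviation. Neither the mouse strain and age, the guides, the culture conditions nor the time after editing are stated, and no label says that the libraries of a group come from separate animals. The p-values therefore measure only the spread between these libraries, which may be technical.

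A dividing cell loads the MCM helicase onto DNA in G1, copies its DNA in S phase and separates the copies in mitosis, and each step draws on its own set of transcripts. Replication genes are switched on at the G1/S boundary by E2F factors once D-type cyclins with Cdk4 or Cdk6 have inactivated the retinoblastoma protein. Mitosis genes peak later and are controlled through a promoter element called the cell cycle homology region (CHR), which binds DREAM and MuvB complexes, and through CCAAT boxes, which bind NF-Y. Resting splenic NK cells divide little, and cytokines such as IL-15 and IL-2 bring them into cycle.

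The promoters show this difference between the phases in their own letters. Of the 43 genes, 35 had a promoter window in the RefSeq table for GRCm38.p6, which runs from 250 bases before the start to 50 after it. Mcm4, Gins2, Ccne2, Ccna2, Aurkb, Kif20a, Tpx2 and Ccnd2 were not matched. An E2F word (TTTCCCGC, TTTCGCGC, TTTGCCGC or TTTGGCGC, on either strand) was found in 7 of 16 replication promoters, 1 of 16 mitosis promoters and 0 of 3 G1 entry promoters, against 2.605% of the promoters of all 27025 genes in the table. A CHR word (TTTGAA or TTCGAA, on either strand) was found in 3 of 16, 13 of 16 and 0 of 3, against 21.7% of all genes. CCAAT, on either strand, was in 11 of 16, 15 of 16 and 1 of 3, against 41.1%. These matches describe letters and not bound sites.

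The 160 bases before the start are given for 3 replication genes and 3 mitosis genes, because these stretches carry the words that set the phases apart. Capitals mark E2F words in the first 3, CHR words in Mki67 and Top2a, and both in Cdk1. In Mcm5 and in the first marked run of Mcm6, an E2F word on 1 strand overlaps another on the opposite strand.
Mcm5, chr8:75109349-75109508, plus strand of GRCm38.p6: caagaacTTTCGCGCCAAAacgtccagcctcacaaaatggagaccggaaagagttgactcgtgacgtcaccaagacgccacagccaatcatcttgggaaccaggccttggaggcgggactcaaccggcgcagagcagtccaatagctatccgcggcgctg
Mcm6, chr1:128359706-128359865, minus strand of GRCm38.p6: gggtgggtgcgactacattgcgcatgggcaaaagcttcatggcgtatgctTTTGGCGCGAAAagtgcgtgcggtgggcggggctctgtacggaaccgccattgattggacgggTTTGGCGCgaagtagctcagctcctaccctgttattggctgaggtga
Cdc6, chr11:98907991-98908150, plus strand of GRCm38.p6: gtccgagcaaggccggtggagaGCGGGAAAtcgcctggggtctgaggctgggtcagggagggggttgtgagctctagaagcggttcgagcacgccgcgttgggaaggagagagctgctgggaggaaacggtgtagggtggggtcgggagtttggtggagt
Mki67, chr7:135716380-135716539, minus strand of GRCm38.p6: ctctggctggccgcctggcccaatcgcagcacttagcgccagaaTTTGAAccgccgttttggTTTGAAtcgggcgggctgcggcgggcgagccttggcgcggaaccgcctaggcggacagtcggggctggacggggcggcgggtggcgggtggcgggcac
Top2a, chr11:99024190-99024349, minus strand of GRCm38.p6: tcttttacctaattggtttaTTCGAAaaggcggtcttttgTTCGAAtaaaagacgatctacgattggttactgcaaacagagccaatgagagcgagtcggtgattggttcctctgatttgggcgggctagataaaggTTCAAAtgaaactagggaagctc
Cdk1, chr10:69352913-69353072, minus strand of GRCm38.p6: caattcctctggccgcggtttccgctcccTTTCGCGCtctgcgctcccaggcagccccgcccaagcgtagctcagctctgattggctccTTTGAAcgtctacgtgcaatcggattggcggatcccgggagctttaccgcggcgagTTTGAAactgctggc
Mcm5 and Mcm6 encode subunits of the replicative helicase and Cdc6 a factor that loads it. In Cdc6 the marked word lies 138 bases before the start, on the opposite strand. Mki67 encodes the proliferation antigen Ki-67, Top2a the topoisomerase that untangles sister DNA, and Cdk1 the kinase that drives mitosis. Cdk1 holds 1 E2F word, 131 bases before the start, and CHR words at 71 and 15 bases.

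The libraries held 4718390 to 5643791 counts. Levels are in CPM, each count divided by its library's TMM-adjusted total and put on the usual per-million scale. Fli1 RNA had 390, 320 and 361 CPM in cells labelled Fli1 KO, against 322 and 279 CPM in NTC, with a log2 fold change of 0.25 ± 0.14 (SE, edgeR quasi-likelihood adjusted p = 0.641), so its RNA was not lower in the edited cells. Small CRISPR deletions can leave the RNA in place, so this level does not check the labels, and every direction below is that of the libraries as labelled. All 12 NK markers examined exceeded 3 times the background density, taken from counts on olfactory and vomeronasal receptor genes. Of the markers tested, 0 of 8 T cell, 0 of 7 B cell, 0 of 3 plasma cell and 0 of 4 neutrophil genes did so, whereas 2 of 7 myeloid genes (Itgax and Cd68) and 1 of 5 erythroid genes (Tfrc) did. Summed T cell markers ran from 56.4 to 60.7 CPM in Fli1 KO and from 57.2 to 62.9 CPM in NTC. Fli1 KO against NTC was tested on 30580 genes with edgeR's quasi-likelihood test, and 140 were called higher and 27 lower at a Benjamini-Hochberg adjusted p under 0.05. That split was 92 and 71 with scaling by library size alone, and 137 and 59 in a fit on genes over 3 times background.

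Summed by phase, the cycle genes lay over background in all 5 libraries. Replication genes ran from 4.24 times background in NTC 2 to 11.2 times in NTC 1. Mitosis genes ran from 9.37 to 22.9 times and G1 entry genes from 7.68 to 15.4 times, between the same libraries. All 43 passed the filter on low counts, and 40 lay over 3 times background with the 5 libraries pooled. Tyms, Gins2 and Cdc6, at 2.76, 2.13 and 2.74 times background, did not, so a larger share of their counts may not be their own RNA. The pooled multiple does not describe each library, and further genes may lie nearer background in NTC 2. The annotation lists pseudogenes named after Pcna, Tyms, Ccnb1, Ccnb2 and Ccnd3, and no source says how reads that match several places were counted, so the counts of these genes are less certain. Of the 43, 0 were called in either direction by edgeR, DESeq2 or limma-voom, against 0.546% of all tested genes called by edgeR, 0.458% higher and 0.0883% lower. At an unadjusted p under 0.05 edgeR gave 1 member, Cdk6, against 8.94% of all tested genes. The Fli1 KO and NTC libraries overlapped for all 43, where 25.6% of all tested genes and 34.1% of those over background had groups that do not overlap. In bulk RNA, fewer cycling cells and less cycle RNA per cell cannot be told apart.

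**Figure D1:**
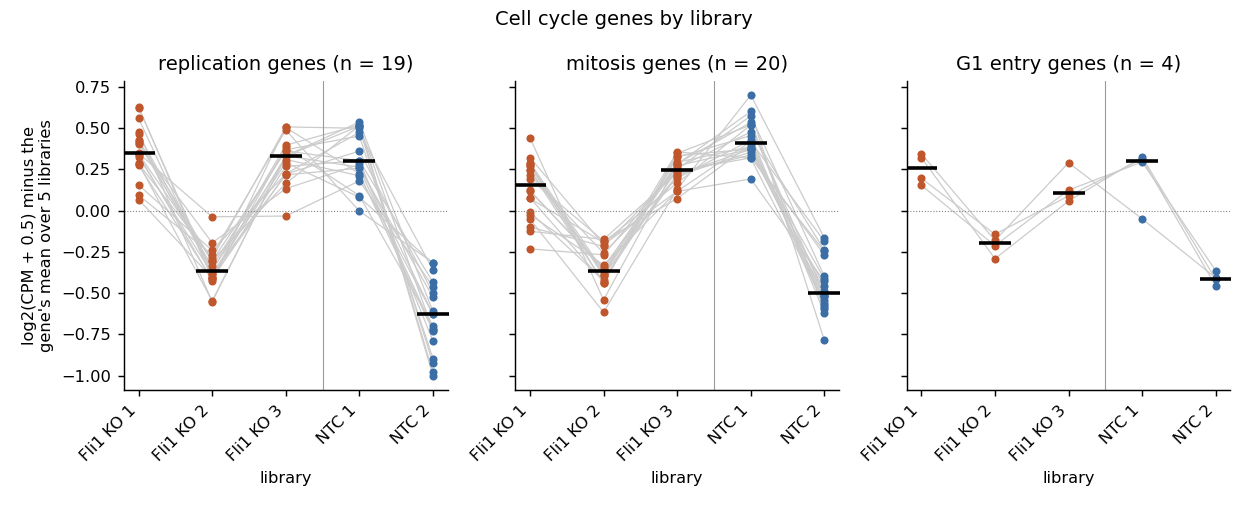
Level of each of the 43 genes (points, joined by grey lines) in each library, as log2(CPM + 0.5) minus the gene's mean over the 5 libraries, with 1 panel per phase, black bars at the medians, Fli1 KO in orange and NTC in blue. Fli1 KO 2 and NTC 2 are the lowest pair of libraries for every gene.

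The widest differences lay between libraries of the same group. For all 43 genes the lowest pair of the 5 libraries was Fli1 KO 2 and NTC 2, against 13.1% of all tested genes and 34.3% of tested genes over background. NTC 2 alone was the lowest of the 5 libraries for 36 of the 43 genes, against 22.4% of all tested genes and 48.6% of those over background. Fli1 KO 2 was the lowest Fli1 KO library for all 43, against 33.9% and 65.0% of the same sets. NTC 1 was the highest and NTC 2 the lowest for 23, against 4.27% and 6.52%. This order of the libraries was singled out after its values were seen. Both libraries carry replicate number 2, and no label says whether the number marks a shared preparation. Summed over the replication genes, the level was 1392, 831 and 1326 CPM in Fli1 KO 1 to 3 and 1362 and 664 CPM in NTC 1 and NTC 2. Summed over the mitosis genes it was 2520, 1887 and 2849 CPM in Fli1 KO and 3372 and 1775 CPM in NTC. The G1 entry genes summed to 748, 557 and 707 CPM in Fli1 KO and 755 and 484 CPM in NTC. The means were 1183 ± 306 and 1013 ± 493 CPM for replication, 2418 ± 489 and 2574 ± 1129 CPM for mitosis, and 671 ± 101 and 619 ± 191 CPM for G1 entry, in Fli1 KO and NTC (SD, n = 3 and 2). Each difference between the means was smaller than the SD of either group.

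**Figure D2:**
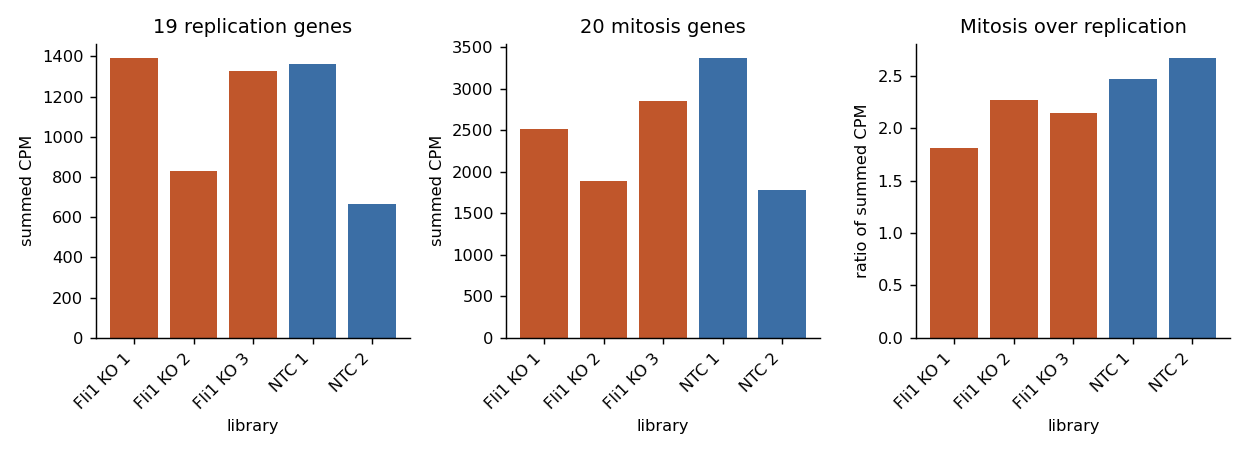
Summed CPM of the replication genes, summed CPM of the mitosis genes and the ratio of the second sum to the first, 1 bar per library, Fli1 KO in orange and NTC in blue. Both sums are lowest in Fli1 KO 2 and NTC 2, and the ratio is 1.81, 2.27 and 2.15 in Fli1 KO against 2.48 and 2.67 in NTC.

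The gap between the NTC libraries was wider than the gap between the groups for 42 of 43 genes, against 60.3% of all tested genes and 55.7% of those over background. Gaps are differences of log2(CPM + 0.5), between NTC 1 and NTC 2 or between the group means. The median gap of NTC 1 over NTC 2 was 0.91 for replication genes (1.87-fold), 0.89 for mitosis genes (1.85-fold) and 0.70 for G1 entry genes (1.62-fold), against 0.14 over tested genes over background. It was positive for all 43 genes and over 0.5 for 40 of them, where 11.2% of tested genes over background passed 0.5. The median size of the gap between group means was 0.29 for replication, 0.12 for mitosis and 0.10 for G1 entry. Within Fli1 KO the highest and lowest library also differed, by a median of 0.76, 0.65 and 0.45 for the 3 phases.

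**Figure D3:**
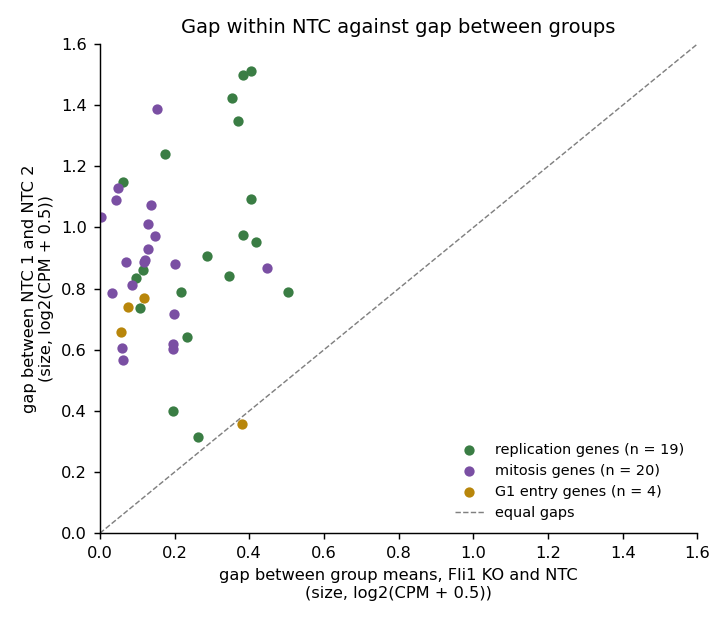
Each point is 1 gene: the size of the difference between the Fli1 KO and NTC means (x) and of that between NTC 1 and NTC 2 (y), both in log2(CPM + 0.5), with the line of equal gaps dashed. Every gene except Cdk6 lies above the line.

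Subunits of the MCM helicase had some of the widest NTC gaps. Mcm5 (ENSMUSG00000005410, GRCm38 chromosome 8, 75109569 to 75128439) stood at 120, 61.2 and 102 CPM in Fli1 KO and at 116 and 40.3 CPM in NTC, the widest NTC gap among the replication genes (2.88-fold). Fli1 KO 1 and NTC 1 were the highest, NTC 2 the lowest, and the groups overlapped. Its log2 fold change was 0.26 ± 0.61 (SE), with a 95% interval of −1.52 to 2.04 and an edgeR adjusted p = 0.951. Mcm2 and Mcm3, in the same helicase ring, also fell short of a call, at log2 fold changes of 0.24 and 0.23 with NTC gaps of 2.57-fold and 2.85-fold. Mcm4, Mcm6 and Mcm7, the other ring subunits, had log2 fold changes of 0.33, 0.32 and 0.06. Their NTC gaps were 2.14-fold, 1.80-fold and 1.82-fold, where the median gap of the 43 genes was 1.84-fold. The genes that load or switch on the helicase had low levels per kb of exon: Cdc6 averaged 4.29, Cdt1 (its loading partner) 7.42, Cdc45 (a helicase cofactor) 6.92 and Gins2 (a GINS subunit) 3.34 CPM per kb. Their log2 fold changes were 0.36, 0.20, 0.34 and 0.21, with edgeR adjusted p from 0.797 to 0.874.

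For the nucleotide supply and fork genes, too, NTC 1 lay above NTC 2. Rrm2 (ENSMUSG00000020649, chromosome 12, 24708241 to 24714146), the small subunit of ribonucleotide reductase, was the replication gene with the highest level per kb, at 34.6 CPM per kb. It stood at 116, 74.0 and 103 CPM in Fli1 KO and at 131 and 55.1 CPM in NTC, so NTC held both the highest and the lowest library (log2 fold change 0.06 ± 0.45, edgeR adjusted p = 0.989). Rrm1, the large subunit, had a log2 fold change of 0.09 at 151, 93.1 and 150 CPM in Fli1 KO and 154 and 91.9 CPM in NTC. Pcna (ENSMUSG00000027342, chromosome 2, 132249162 to 132253314), the sliding clamp of DNA polymerases, had the largest positive log2 fold change of the 43 genes, 0.51 ± 0.42, with a 95% interval of −0.63 to 1.65 and an edgeR adjusted p = 0.812. Its levels were 118, 56.9 and 99.1 CPM in Fli1 KO and 80.8 and 46.6 CPM in NTC. Fli1 KO 1 and 3 lay above both NTC libraries, and Fli1 KO 2 lay between them. Tyms (ENSMUSG00000025747, chromosome 5, 30058202 to 30073617), thymidylate synthase, had the smallest p of the phase (edgeR adjusted p = 0.729) and the narrowest NTC gap (1.25-fold). It stood at 27.6, 21.4 and 36.5 CPM in Fli1 KO and at 25.8 and 20.7 CPM in NTC, and NTC 1 lay above Fli1 KO 2.

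The regulators of S-phase entry and the chromatin genes completed the phase. E2f1, an activator of this gene set, and Ccne1 and Ccne2, the cyclins that pair with Cdk2, had log2 fold changes of 0.21, −0.04 and 0.22. Uhrf1, which carries DNA methylation through replication, had 0.23 with an NTC gap of 2.71-fold. Chaf1a (ENSMUSG00000002835, chromosome 17, 56040439 to 56072289), a subunit of the histone chaperone CAF-1, had the largest negative value, −0.15 ± 0.25 (edgeR adjusted p = 0.927), with 46.8, 33.5 and 52.2 CPM in Fli1 KO and 62.2 and 34.7 CPM in NTC. NTC 1 was its highest library and Fli1 KO 2 its lowest. Fitted log2 fold changes were positive for 17 of the 19 replication genes, against 5366 of 7609 tested genes over background. The replication median was 0.23, against 0.11 over tested genes over background and −0.018 over all tested genes. With library size as the only scaling, 14 of 19 were positive, and the median was 0.08 where that of all tested genes was −0.14.

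**Figure D4:**
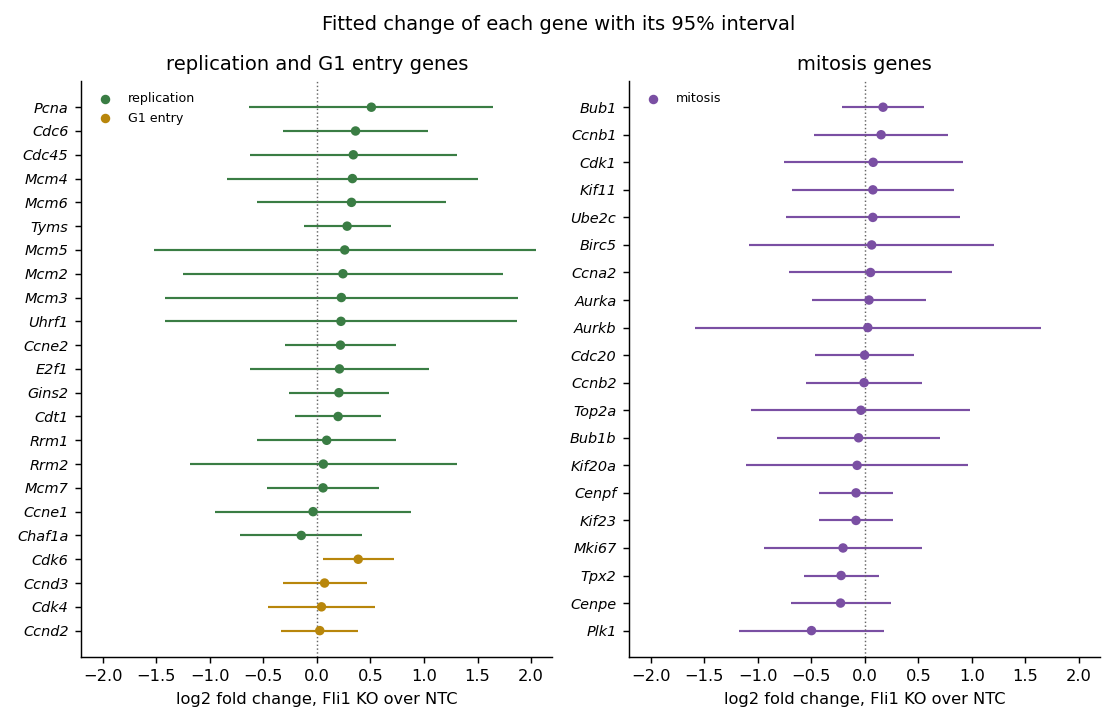
Fitted log2 fold change of Fli1 KO over NTC for each gene (point) with its 95% interval (line), from edgeR's quasi-likelihood fit. Of the 43 intervals only that of Cdk6 lies wholly on 1 side of 0, and the adjusted p of Cdk6 is 0.458.

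Of the mitosis genes, 9 had positive and 11 negative log2 fold changes, with a median of −0.0042. Tested genes over background had 5366 of 7609 positive and a median of 0.11. Mki67 (ENSMUSG00000031004, chromosome 7, 135689784 to 135716361) had the highest level per kb of the 43 genes, 80.0 CPM per kb. It stood at 773, 580 and 926 CPM in Fli1 KO and at 1158 and 590 CPM in NTC. NTC 1 was the highest, and Fli1 KO 2 and NTC 2 were the lowest (log2 fold change −0.20 ± 0.31, edgeR adjusted p = 0.914). Top2a stood at 411, 299 and 462 CPM in Fli1 KO and at 550 and 251 CPM in NTC, so NTC 1 and NTC 2 enclosed all 3 Fli1 KO libraries. Cdk1 and its cyclins Ccna2, Ccnb1 and Ccnb2 had log2 fold changes of 0.08, 0.05, 0.15 and −0.01, and all 4 were lowest in NTC 2.

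Among mitotic kinases, Plk1 (ENSMUSG00000030867, chromosome 7, 122159439 to 122169873), which acts in spindle assembly and cytokinesis, had the largest negative value of the 43 genes, −0.50 ± 0.29, with a 95% interval of −1.17 to 0.18 (edgeR adjusted p = 0.692). Its levels were 35.3, 23.7 and 40.1 CPM in Fli1 KO and 59.8 and 32.6 CPM in NTC. All 3 Fli1 KO libraries lay below NTC 1, while 2 of them lay above NTC 2. Aurkb (ENSMUSG00000020897, chromosome 11, 69045647 to 69051664), the kinase of the chromosomal passenger complex, had the widest NTC gap of the phase (2.66-fold), at 44.2, 22.1 and 39.5 CPM in Fli1 KO and 49.4 and 18.6 CPM in NTC. NTC again enclosed Fli1 KO, and the log2 fold change was 0.03 ± 0.57 (edgeR adjusted p = 0.996). Aurka, which matures spindle poles, and Birc5, survivin of the passenger complex, had 0.04 and 0.06.

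The spindle checkpoint and spindle motor genes had values on both sides of 0. Bub1 (ENSMUSG00000027379, chromosome 2, 127801122 to 127831865), a checkpoint kinase, had the largest positive value of the phase, 0.17 ± 0.18 (edgeR adjusted p = 0.850), with 51.6, 35.7 and 44.7 CPM in Fli1 KO and 47.2 and 30.5 CPM in NTC. Bub1b, the checkpoint protein BubR1, had −0.06. Cdc20 and Ube2c, which work with the anaphase-promoting complex, had −0.0018 and 0.07. The centromere genes Cenpe and Cenpf had −0.23 and −0.08. The motors Kif11, Kif20a and Kif23, and Tpx2, which nucleates spindle microtubules, had 0.08, −0.07, −0.08 and −0.22. NTC 1 was the highest library for 18 of 20 mitosis genes but for 7 of 19 replication genes. For 9 of the other replication genes the highest was Fli1 KO 1.

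The genes of G1 entry had the narrowest median gaps of the 3 phases, within NTC, within Fli1 KO and between the groups. Ccnd2 (ENSMUSG00000000184, chromosome 6, 127125162 to 127152193), a D-type cyclin, had the highest level per kb of the 4, 30.3 CPM per kb, at 313, 242 and 306 CPM in Fli1 KO and 345 and 218 CPM in NTC (log2 fold change 0.03 ± 0.17, edgeR adjusted p = 0.984). Ccnd3 (ENSMUSG00000034165, chromosome 17, 47505051 to 47599691), its relative, had 168, 133 and 156 CPM in Fli1 KO and 183 and 107 CPM in NTC, the widest NTC gap of the 4 (1.71-fold). For both, NTC enclosed Fli1 KO. Cdk4, a partner kinase of these cyclins, had 0.04. Cdk6 (ENSMUSG00000040274, chromosome 5, 3341485 to 3531008), the other partner kinase, stood at 168, 116 and 162 CPM in Fli1 KO and at 128 and 99.4 CPM in NTC. Fli1 KO 1 and 3 lay above both NTC libraries and Fli1 KO 2 between them. It was the only gene of the 43 whose groups lay further apart (0.38) than its NTC libraries (0.36), and its fitted log2 fold change of 0.39 ± 0.16 was not called (edgeR adjusted p = 0.458).

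The balance between the phases differed by library. The mitosis sum was 1.81, 2.27 and 2.15 times the replication sum in Fli1 KO, and 2.48 and 2.67 times in NTC, so that here the groups did not overlap. After the expected background was subtracted the ratios were 1.87, 2.501 and 2.25 in Fli1 KO and 2.60 and 3.13 in NTC. Without Mki67 and Top2a, the genes with the most counts, they were 0.960, 1.21 and 1.10 in Fli1 KO and 1.22 and 1.41 in NTC. This ratio was computed after the sums had been seen, and no test was run on it. The lowest NTC ratio exceeded the highest Fli1 KO ratio by less than the range within Fli1 KO.

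Other measures moved with the level of the cycle genes, and their part in it was not tested. Counts on the predicted genes Gm10800, Gm10801, Gm10717 and Gm10718 took 18.1%, 19.3% and 16.3% of the Fli1 KO libraries and 12.1% and 22.3% of the NTC libraries, the reverse of the order of the mitosis sums. Background density, scaled by library size alone, was 1.37, 1.68 and 1.42 CPM per kb in Fli1 KO and 1.47 and 1.81 in NTC. With TMM scaling, the background expected for the replication genes was 134, 149 and 130 CPM in Fli1 KO and 122 and 157 in NTC. Both measures were highest in Fli1 KO 2 and NTC 2, the libraries with the lowest cycle genes. The summed NK markers were lowest in the same libraries of each group, at 13768, 9326 and 11957 CPM in Fli1 KO and 9938 and 6741 CPM in NTC. Gzma, Gzmb, Il2rb and Prf1 had the most counts of the 12 markers, so the sum mostly follows these genes. Taken singly, 6 of the 12 markers had Fli1 KO 2 and NTC 2 as their lowest pair. NTC 1 lay above NTC 2 for 10 of them, whereas Tbx21 and Klrk1 were highest in NTC 2. With the expected background subtracted, NTC 1 exceeded NTC 2 by 2.44-fold in the replication sum, 2.03-fold in the mitosis sum and 1.68-fold in the G1 entry sum, against 2.05-fold, 1.90-fold and 1.56-fold before.

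**Figure D5:**
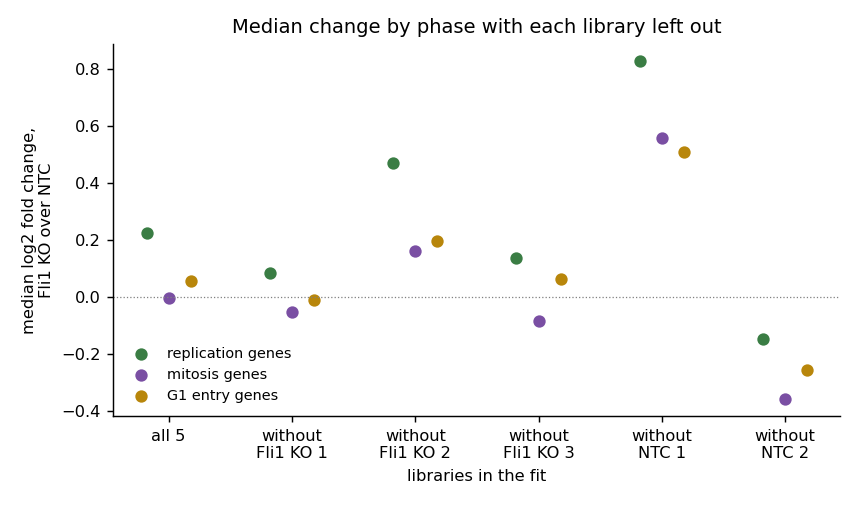
Median log2 fold change of Fli1 KO over NTC of the replication, mitosis and G1 entry genes (y) in the fit on all 5 libraries and in fits that each leave out 1 library (x). All 3 medians are highest without NTC 1, at 0.83, 0.56 and 0.51, and lowest without NTC 2, at −0.15, −0.36 and −0.26.

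The direction of the comparison depended on which NTC library was used. Without NTC 1 all 43 genes had positive log2 fold changes and edgeR called 18 higher, of which 10 act in replication, 7 in mitosis and 1 (Cdk6) in G1 entry. In that fit 2.14% of all tested genes were called higher. Without NTC 2, 39 of the 43 were negative, and Plk1 was called lower (−0.85, edgeR adjusted p = 0.00934), as were 0.0787% of all tested genes. Mcm5 had a log2 fold change of 1.24 without NTC 1 (edgeR adjusted p = 0.00367) and −0.29 without NTC 2, and Aurkb 0.93 (edgeR adjusted p = 0.0153) and −0.49. These fits hold 1 NTC library, whose spread is assumed to be that of Fli1 KO, so the difference between NTC 1 and NTC 2 is missing from their errors. Without Fli1 KO 2, 39 of 43 were positive and the replication median was 0.47, and without Fli1 KO 1 it was 0.08. Pcna, Tyms, Gins2 and Cdk6 had a positive value in both fits with 1 NTC library, but without NTC 2 the values were only 0.18, 0.14, 0.03 and 0.23. Tyms and Gins2 lay under 3 times background, and the counts of Pcna and Tyms are among those less certain because of pseudogenes.

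Other genes of the same machinery were taken from lists drawn up by function. Of 50 other replication genes tested, 0 were called, against 0.546% of all tested genes, a share at which few calls would fall in a list this short. Of the 50, 41 were positive, with a median log2 fold change of 0.13. Tested genes over background had 5366 of 7609 positive and a median of 0.11. Fli1 KO 2 and NTC 2 were the lowest pair for 40 of the 50 other replication genes, against 13.1% of all tested genes and 34.3% of those over background. The other replication genes with the smallest p were Orc3 and Orc6, subunits of the origin recognition complex, neither called. Orc3 stood at 65.4, 61.9 and 62.7 CPM in Fli1 KO and at 43 and 48.3 CPM in NTC (log2 fold change 0.47 ± 0.14, edgeR adjusted p = 0.182). Orc6 stood at 21.99, 18.4 and 19.1 CPM in Fli1 KO and at 16.8 and 10.2 CPM in NTC (0.53 ± 0.20, edgeR adjusted p = 0.393), and was called without NTC 1 (0.97, adjusted p = 0.0126). For both, every Fli1 KO library lay above both NTC libraries. The groups did not overlap for 3 of the 50 genes (6%), against 25.6% of all tested genes and 34.1% of those over background.

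Of 58 other mitosis genes tested, 0 were called, against 0.546% of all tested genes. Fli1 KO 2 and NTC 2 were the lowest pair for 53, against 13.1% of all tested genes and 34.3% of those over background. Log2 fold changes were positive for 27 and negative for 31, with a median of −0.0072. Tested genes over background had 5366 of 7609 positive and a median of 0.11. The groups did not overlap for 1 of the 58, against 25.6% of all tested genes and 34.1% of those over background. Cenpk, a centromere protein at 2.07 times background, and Aspm, a spindle pole protein, had the smallest p, with log2 fold changes of 0.39 ± 0.19 and −0.28 ± 0.16 (edgeR adjusted p = 0.565 and 0.649). Of 38 cell cycle control genes tested, 0 were called, against the same 0.546% of all tested genes. The groups did not overlap for 5 of the 38 (13.2%), against 25.6% of all tested genes. The smallest p belonged to Cdkn1a, the inhibitor p21 of cyclin-dependent kinases, at 51.9, 24.4 and 39.9 CPM in Fli1 KO and 19.4 and 13.2 CPM in NTC. Every Fli1 KO library lay above both NTC libraries, and the log2 fold change was 1.23 ± 0.33 (edgeR adjusted p = 0.266). DESeq2 called it (1.26, adjusted p = 0.00394), as did edgeR without NTC 1 (1.57, adjusted p = 1.7e-04) and without Fli1 KO 2 (1.5, adjusted p = 4.9e-04), but not without NTC 2 (0.995, adjusted p = 0.425), Fli1 KO 1 (0.97, adjusted p = 0.279) or Fli1 KO 3 (1.23, adjusted p = 0.522). limma-voom did not call it either (1.18, adjusted p = 0.408). Rb1, the retinoblastoma protein that restrains E2F, stood at 74.7, 64.7 and 75.2 CPM in Fli1 KO and 59.6 and 53.7 CPM in NTC (0.33 ± 0.14, edgeR adjusted p = 0.456), again with no overlap of the groups.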

How the data were processed

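RNA of mouse splenic NK cells was measured in 3 Fli1 KO and 2 NTC libraries, made from 10 ng of RNA with an enrichment kit, per the labels' protocols. Reads were handled with FastQC 0.12.0, Trimmomatic 0.39, STAR 2.7.11 and the build mm10, per the submitters' processing notes. How reads were assigned to genes, with which strand setting and annotation release, was not given in the sources used here. Raw, unscaled counts were deposited per Ensembl ID, in a table with 0 columns beyond the 5 libraries, and 52073 of its 56691 IDs had a symbol. Gene coordinates and exon lengths came from GENCODE M21 on GRCm38, and promoters from RefSeq on GRCm38.p6.

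Counts were filtered with filterByExpr (minimum count 10), scaled with TMM and tested with edgeR 4.0.16 (robust quasi-likelihood, R 4.3.3), with Benjamini-Hochberg adjustment over 30580 genes and a threshold of 0.05. The SE of a log2 fold change is that of the fitted coefficient. Background density came from the counts per exon kb of 1453 autosomal protein-coding olfactory and vomeronasal receptor genes. CPM are TMM-scaled, except those of the background density per kb, and gaps are of log2(CPM + 0.5).

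Per phase, values in every library are given for the genes with the highest level per kb, the largest positive and negative log2 fold change, the smallest p and the widest NTC gap. Each other list gives the 2 genes with the smallest p, and Fli1 is named. Further members are examples. The members and lists were chosen with earlier results of these data known. DESeq2 1.42.0, limma-voom 3.58.1, other scalings and filters, left-out libraries and a replicate block were alternatives. With groups of 3 and 2, no value was screened for a sample apart from its group.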

Additional observations from a re-analysis of the deposited data

How the results depend on the processing

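The 0 calls among the 43 genes held under DESeq2, limma-voom, every scaling and every filter tried. The sign of their log2 fold changes did not. With library size alone, Rrm2 was at −0.085, Aurkb −0.12, Ccnd2 −0.11 and Ccnd3 −0.066, and in the fit on genes over 3 times background they were at −0.048, −0.086, −0.085 and −0.037. Positive values numbered 17 of 43 and 14 of 40 in those fits, against 30 of 43 as reported. In the fit as reported, 5366 of 7609 tested genes over background were also positive. The number with a wider gap within NTC than between groups was 42 or 43 of 43 under each of the 3 other scalings, with no filter and with the filter of 5 CPM. It was not counted in the fit on genes over 3 times background, which held 40 of them. Over all genes, calls were 92 higher and 71 lower with library size alone, 239 and 56 with no filter, and 137 and 59 over 3 times background.

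With 1 library left out at a time, calls over all genes ran from 46 to 703 higher and from 3 to 174 lower, and calls among the 43 genes from 0 to 18 higher and from 0 to 1 lower. The medians ran from −0.15 to 0.83 (replication), −0.36 to 0.56 (mitosis) and −0.26 to 0.51 (G1 entry). Signs turned for Rrm2 (−0.42 to 0.84), Aurkb (−0.49 to 0.93), Ccnd2 (−0.26 to 0.42), Chaf1a (−0.49 to 0.36), Mcm5 (−0.29 to 1.24), Mki67 (−0.60 to 0.38), Plk1 (−0.85 to 0.034), Bub1 (−0.10 to 0.54), Ccnd3 (−0.25 to 0.53) and Aspm (−0.54 to 0.075). The cause was not tested.

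The groups share the replicate numbers 1 and 2. With these as a replicate block, edgeR called 728 genes higher and 193 lower, among them Pcna higher (0.43) and Plk1 (−0.63) and Cenpe lower, so 1 and 2 of the 43, and Aurkb was at −0.0038. Of the other named genes, Orc3 (0.48, adjusted p = 0.00797) and Cdkn1a (1.21, adjusted p = 3.2e-11) were called higher and Aspm (−0.37, adjusted p = 0.0356) lower. Deviations from the group means correlated at 0.07 for the libraries numbered 1 and 0.15 for those numbered 2 over tested genes (0.29 and 0.43 over background). Fli1 KO 3 and NTC 1, with different numbers, correlated at 0.08 (0.20 over background). With 2 NTC libraries, each deviation of NTC 2 is that of NTC 1 with the sign turned, so these correlations are not independent. No label says what the numbers mark, and with 2 pairs the numbers were not taken to pair the libraries. The precision is limited by 2 NTC libraries that differ widely in these genes, not only by depth: Gins2 has 51 counts in NTC 2, and Mki67 2824.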

Other observations

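Histone genes, many of whose transcripts accumulate in S phase, were added after the values of the other genes had been seen. They were taken by the symbol pattern of the protein-coding Hist1 to Hist4 genes. The pattern does not separate replication-dependent histone genes from others. Of 67 listed, 55 were tested. Their summed level was 8615, 5461 and 7649 CPM in Fli1 KO and 6908 and 3508 CPM in NTC. NTC 2 was the lowest library for 49 of the 55, against 22.4% of all tested genes and 48.6% of those over background. The median gap of NTC 1 over NTC 2 was 1.05 on the log2 scale, against 0.14 over tested genes over background. The median log2 fold change was 0.33, and 50 of 55 were positive, against 0.11 and 5366 of 7609 for tested genes over background. The groups did not overlap for 7 of the 55 (12.7%), against 25.6% of all tested genes and 34.1% of those over background. Hist1h1c, a linker histone, was called higher (888, 657 and 705 CPM in Fli1 KO and 519 and 362 CPM in NTC, log2 fold change 0.77 ± 0.17, edgeR adjusted p = 0.0371). The groups did not overlap, but without NTC 2 the gene was not called (0.54, edgeR adjusted p = 0.344). Hist1h1e, another linker histone, stood at 671, 503 and 616 CPM in Fli1 KO and 399 and 231 CPM in NTC, and was not called (0.92 ± 0.20, edgeR adjusted p = 0.0560). The clustered histone genes resemble each other closely, so reads may be shared among them.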
